A study of Mus musculus with 86 samples.

Results

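The Ms4a genes studied here lie side by side on mouse chromosome 19, between chr19:11067471 and chr19:11604804 (mm10). The set was given by name and holds 8 genes, Ms4a7, Ms4a8a, Ms4a4a, Ms4a4b, Ms4a4c, Ms4a6b, Ms4a6c and Ms4a6d, of which 7 have an entry among the 24063 gene symbols of the deposited expression tables. Ms4a4a has no entry there and appears below only through its position and the chromatin entries at its start. Where a symbol had several transcripts, the longest was used.

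MS4A proteins are small membrane proteins that cross the membrane several times, with both ends in the cytoplasm. The founding members are Ms4a1, which encodes the B-cell surface protein CD20, and Ms4a2, which encodes the beta chain of the high-affinity IgE receptor of mast cells, and many of the other members are expressed in myeloid cells. In mice, Ms4a4b is best known from T cells, Ms4a6d has been described as a partner of the macrophage receptor Vsig4, and Ms4a7 is used as a marker of brain macrophages other than parenchymal microglia. Ms4a8a has been described in macrophages exposed to anti-inflammatory signals.

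The study compared macrophages from different sites, mouse strains and culture conditions by RNA-seq and by ChIP-seq for PU.1, a lineage-determining transcription factor of macrophages, and for the histone marks H3K4me2 and H3K27ac, which mark regulatory DNA and active regulatory DNA. From C57BL6/J mice there were 5 populations: microglia sorted from brain, large peritoneal macrophages (LPM) and small peritoneal macrophages (SPM) sorted from the peritoneal cavity, thioglycollate-elicited peritoneal macrophages (TGEM), and macrophages grown from bone marrow (BMDM) in medium conditioned by L cells as the source of M-CSF. Each population had 2 RNA libraries, 1 in a polyA table and 1 in a second table, in which those of LPM, SPM and microglia are labelled as depleted of ribosomal RNA. The strains NOD/ShiLtJ and SPRET/EiJ each gave 1 further library of LPM and 1 of microglia. LPM of C57BL6/J mice were cultured for 7 days with 4 ng/ml IL-34 or M-CSF, each with 2 uM all-trans retinoic acid (ATRA), its solvent DMSO, 1 ng/ml TGFB1 or the TGFB1 vehicle, and microglia for 7 days with 4 ng/ml IL-34, M-CSF or GM-CSF. No genotype other than strain, and neither age nor sex, is given in the sources used here, nor whether the libraries came from separate animals, so p-values measure the spread between libraries, which may be technical.

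Values are reads per gene scaled to 10000000 mapped reads. The 26 RNA libraries held 2886219 to 27003672 mapped reads, with a median of 13355435, and 1 read was worth 3.465 in the shallowest library (SPM, polyA). The polyA, second and strain tables count reads over the whole gene with its introns, and the culture table over exons, so levels were not compared between the culture table and the others. In the culture table the Ms4a7 entry is also a different transcript from that in the other tables. Each ChIP experiment is 1 library and was not tested. Markers of other cells moved with some samples: summed B-cell markers (8 genes) were 11125 and 6846 in SPM and 82.7 to 2292 in the other population libraries. Summed T-cell and NK-cell markers (10 genes) were 845 and 462 in SPM, of which 755 and 425 were Cd2, 88.8 and 119 in LPM and 3.65 to 74.5 elsewhere. Summed mesothelial and fibroblast markers (6 genes) were 1171 and 1852 in TGEM and at most 63.4 in the other population libraries. Summed LPM markers (9 measured) were 82399 and 57176 in SPM beside 133804 and 80319 in LPM, with Gata6, the transcription factor that defines LPM, at 1327 and 1005 in SPM and 2185 and 2086 in LPM. What part these admixtures play in the Ms4a values was not tested.

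Promoter sequences are shown for 4 genes to which the results below return. RefSeq (GRCm38.p6) gives 8 promoters for 7 of the 8 genes, each 250 bases before to 50 bases after the start. Searched on both strands, the PU.1 core motif GAGGAA is in 3 of these 8 and in 28.3% of 32851 promoters, and the nuclear receptor recognition sequence AGGTCA is in 1 of 8 and in 16.3%. The 2 motifs do not overlap each other in the promoters printed, and capitals mark them. The Ms4a4c promoter (chr19:11407411-11407710, plus strand) and the Ms4a4b promoter (chr19:11443308-11443607, plus strand) are printed as the most alike pair, the Ms4a7 promoter (chr19:11336097-11336396, minus strand) as that of the most abundant transcript, and the Ms4a8a promoter (chr19:11081054-11081353, minus strand) as that of the gene highest in LPM.
Ms4a4c: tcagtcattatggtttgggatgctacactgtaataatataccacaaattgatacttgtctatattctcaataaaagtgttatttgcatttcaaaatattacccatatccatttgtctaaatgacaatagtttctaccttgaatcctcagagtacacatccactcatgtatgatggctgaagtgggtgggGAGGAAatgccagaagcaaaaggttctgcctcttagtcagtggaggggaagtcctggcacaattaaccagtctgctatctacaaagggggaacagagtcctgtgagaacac
Ms4a4b: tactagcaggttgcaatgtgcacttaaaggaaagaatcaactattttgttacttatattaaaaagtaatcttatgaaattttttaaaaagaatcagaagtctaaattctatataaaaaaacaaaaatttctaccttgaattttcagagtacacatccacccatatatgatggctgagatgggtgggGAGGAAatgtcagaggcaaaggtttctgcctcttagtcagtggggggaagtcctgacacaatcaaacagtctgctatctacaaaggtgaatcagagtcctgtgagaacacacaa
Ms4a7: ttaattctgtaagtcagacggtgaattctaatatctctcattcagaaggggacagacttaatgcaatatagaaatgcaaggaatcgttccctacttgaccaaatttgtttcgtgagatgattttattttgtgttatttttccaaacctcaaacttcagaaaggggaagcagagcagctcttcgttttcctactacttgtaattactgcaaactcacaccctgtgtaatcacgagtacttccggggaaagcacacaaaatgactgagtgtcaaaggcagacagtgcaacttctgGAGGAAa
Ms4a8a: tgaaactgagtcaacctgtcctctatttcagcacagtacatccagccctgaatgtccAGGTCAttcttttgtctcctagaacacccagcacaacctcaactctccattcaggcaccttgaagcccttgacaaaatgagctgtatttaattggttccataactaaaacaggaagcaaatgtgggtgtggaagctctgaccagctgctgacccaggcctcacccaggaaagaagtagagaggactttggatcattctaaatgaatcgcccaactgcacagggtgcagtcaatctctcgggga

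Aligned with gaps allowed, the Ms4a4c and Ms4a4b promoters are identical at 237 bases, which is 79% of the promoter length of 300. The Ms4a6c and Ms4a6b promoters share 65.67% and the other 19 pairs 56.33% to 61.67%. Both Ms4a4 promoters hold the PU.1 core at nearly the same place, 61 and 64 bases before the start, and the Ms4a7 promoter holds it 43 bases after the start. The Ms4a8a promoter has AGGTCA 193 bases before its start and no GAGGAA in this window. The matches are letters in a sequence and were not tested as binding sites.

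The leading Ms4a gene differed between the macrophage populations. On the scale of reads per kilobase of the whole gene, introns included, Ms4a7 led in BMDM at 560 ± 79.8 (SD, n = 2), Ms4a6d in TGEM at 61.4 ± 18.5, Ms4a8a in SPM at 135 ± 29.2 and in LPM at 149 ± 51.4, and Ms4a6b in microglia at 27.7 ± 13.4. The same genes spanned orders of magnitude across populations: in BMDM, where Ms4a7 led, Ms4a8a was last at 0.169 ± 0.0504 per kilobase. Divided by exon length instead, a choice made after the data were seen, the leaders were as above in 4 populations, while in microglia Ms4a6d, at 227 ± 14.5, came before Ms4a6b, at 195 ± 94.6. The exon length of Ms4a7 is that of another transcript. In bulk libraries fewer cells of a type and less RNA per cell cannot be told apart.

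In a limma-trend fit on log2(value + 1) with the table as a term, 6 of the 7 genes differed among the 5 populations (F test, Benjamini-Hochberg adjusted p under 0.05), against 42.4% of all 19313 genes tested. Over the 10 pairs of populations, 37 of 70 tests of these genes passed an adjusted p of 0.05 and a log2 difference of at least 1, against 19.7% of tests over all genes. By pair, 4 of 7 passed for BMDM against TGEM (5.94% of all genes), 5 for BMDM against SPM (15.1%), 5 for BMDM against LPM (15.6%), 4 for BMDM against microglia (30.4%) and 4 for TGEM against SPM (26.5%). The remaining pairs gave 4 for TGEM against LPM (26.97%), 5 for TGEM against microglia (37.5%), 3 for SPM against microglia (20.7%), 3 for LPM against microglia (18.3%) and 0 for SPM against LPM (0.0259%). All 37 kept their sign under every alternative and with each library left out, 16 also passed with each library left out, and 15 passed throughout. The other 21 lost the call without at least 1 library, with adjusted p up to 0.339. The median log2 difference over genes with a mean of at least 50 was between -0.21 (TGEM minus SPM) and 0.39 (BMDM minus microglia), while the smallest called difference was 1.52.

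Ms4a8a was highest in the peritoneal macrophages. Its values were 2526 and 1535 in LPM (polyA, then second table), 2124 and 1561 in SPM, 284 and 439 in TGEM, 1.82 and 2.80 in BMDM, and 5.73 and 0 in microglia. The LPM and SPM values overlapped each other and lay above every TGEM value, which in turn lay far above every BMDM and microglia value. The log2 difference was 9.57 ± 0.71 (SE) between LPM and microglia (limma, adjusted p = 2.2e-05) and -9.23 ± 0.71 for BMDM minus LPM (limma, adjusted p = 5.8e-05). TGEM exceeded microglia by 7.09 ± 0.71 (limma, adjusted p = 7.8e-05) and BMDM minus TGEM was -6.76 (limma, adjusted p = 0.0019). The lower level of TGEM than of LPM, -2.475 ± 0.71 (limma, adjusted p = 0.029), lost its call without any one library of LPM, SPM or TGEM (adjusted p up to 0.242), and so did TGEM against SPM, -2.36, without 7 of the 10 libraries (up to 0.278). Since 1 microglia library holds no Ms4a8a read, the fitted values against microglia depend on the pseudocount.

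Ms4a7 was highest in BMDM and next highest in TGEM. It stood at 9312 and 7606 in BMDM, 665 and 616 in TGEM, 31.2 and 2.71 in SPM, 26.7 and 4.60 in LPM, and 25.1 and 6.24 in microglia. BMDM lay above TGEM and TGEM above the 6 libraries of the sorted populations, whose ranges overlapped one another. The value of 31.2 in SPM is 9 reads. BMDM exceeded LPM by a log2 difference of 9.40 ± 0.70 (limma, adjusted p = 4.9e-05), SPM by 9.59 (5.8e-05) and microglia by 9.26 (2.0e-05), and TGEM exceeded the same populations by 5.68, 5.87 and 5.54 (limma, adjusted p 0.00045, 0.00043 and 0.00029). These 6 calls held with each library left out. BMDM against TGEM, 3.71 ± 0.70 (limma, adjusted p = 0.018), lost its call without any 1 library of BMDM, LPM, microglia or TGEM, with adjusted p up to 0.217.

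**Figure D1:**
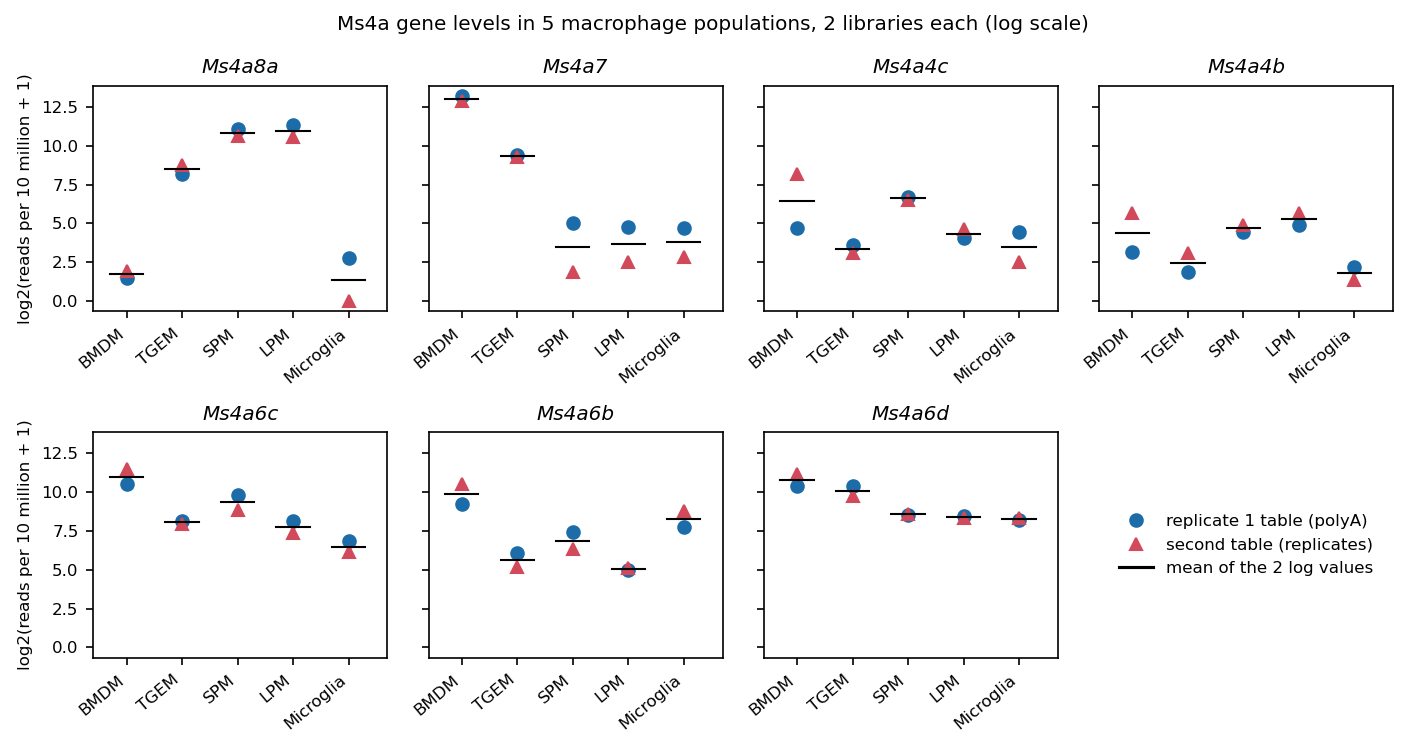
Values of the 7 genes, as log2(reads per 10000000 mapped reads + 1), in the 2 libraries of each of the 5 C57BL6/J populations. Points are libraries, with circles for the polyA table and triangles for the second, and bars are means of the 2 log values. Ms4a8a is high in LPM and SPM and Ms4a7 in BMDM, while Ms4a6d spans the narrowest range of the genes drawn.

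The plot of values by population shows the 3 Ms4a6 genes as the broadly expressed part of the cluster, each highest in BMDM. Ms4a6d had 1323 and 2259 in BMDM, 1356 and 879 in TGEM, 367 and 393 in SPM, 355 and 328 in LPM, and 295 and 323 in microglia. BMDM and TGEM overlapped each other, and all their values were above those of the sorted cells. BMDM exceeded microglia by 2.481 ± 0.36 on the log2 scale (limma, adjusted p = 0.00084) and TGEM did so by 1.82 (limma, adjusted p = 0.0034), calls that held with each library left out. The calls of BMDM over SPM (2.18) and LPM (2.34) and of TGEM over SPM (1.52) and LPM (1.67) each lost significance without at least 1 library (limma, adjusted p up to 0.126).

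Ms4a6c read 1451 and 2886 in BMDM, 904 and 469 in SPM, 278 and 251 in TGEM, 281 and 167 in LPM, and 115 and 68.7 in microglia. BMDM was above all others without overlap, SPM came next, TGEM and LPM overlapped, and microglia were lowest. BMDM exceeded microglia by 4.51 ± 0.46 on the log2 scale (limma, adjusted p = 0.00011), which held with each library left out. BMDM against TGEM (2.95), SPM (1.65) and LPM (3.23), and TGEM (1.562) and SPM (2.86) against microglia, passed with all libraries and lost the call without at least 1. The weakest was BMDM against SPM, whose limma adjusted p of 0.039 rose to as much as 0.339 and passed only without the polyA library of BMDM.

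Ms4a6b separated microglia from LPM in the direction opposite to Ms4a8a. It was at 594 and 1505 in BMDM, 216 and 440 in microglia, 170 and 79.2 in SPM, 67.4 and 34.8 in TGEM, and 30.7 and 33.8 in LPM. BMDM was highest and microglia second without overlap, and the 2 LPM values were below all others. BMDM exceeded LPM by 4.83 ± 0.60 on the log2 scale (limma, adjusted p = 0.00070), a call that held with each library left out. LPM were lower than microglia by -3.22 ± 0.60 (limma, adjusted p = 0.0046), a call lost without either LPM library or the second microglia library (adjusted p up to 0.0855). Differences of BMDM from TGEM (4.26) and SPM (3.02) and of TGEM from microglia (-2.64) were lost without the second library of either population compared (limma, adjusted p up to 0.142).

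The Ms4a4 genes were the low members. Ms4a4b and Ms4a4c resemble each other in sequence, as do the Ms4a6 genes, and how reads that match several of them were counted is not stated, so their values are uncertain to that extent. Ms4a4c read 25.5 and 290 in BMDM, 104 and 89.0 in SPM, 15.4 and 24.0 in LPM, 20.8 and 4.68 in microglia, and 11.1 and 7.45 in TGEM. The BMDM values lay on either side of the SPM values, and Ms4a4c was the gene that missed the threshold for any difference among populations (limma F test, adjusted p = 0.059). With the higher Ms4a4c library of BMDM went a summed monocyte marker value (7 genes) of 4537 against 1662 in the other, and Ly6a at 689 against 12.3. In SPM the monocyte sum was 11832 and 12666. Its part in the Ms4a4c values was not tested. TGEM were lower than SPM by -3.26 ± 1.06 on the log2 scale (limma, adjusted p = 0.047), a call lost without any 1 of 8 libraries (up to 0.269).

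Ms4a4b, known from T cells, was at 28.7 and 50.1 in LPM, 20.8 and 28.7 in SPM, 7.75 and 50.3 in BMDM, 2.59 and 7.45 in TGEM, and 3.58 and 1.561 in microglia. LPM and SPM were above TGEM and microglia without overlap, and the BMDM libraries spanned most of this range. LPM exceeded microglia by 3.51 ± 0.84 on the log2 scale (limma, adjusted p = 0.016), a call lost without either LPM library or the second microglia library (up to 0.168). The microglia value of 1.561 is 1 read. The values of 20.8 in the polyA SPM library and 7.45 in the second TGEM library are also few reads. There 1 read was worth 3.465 and 2.483.

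SPM and LPM were the pair with the fewest calls: 0 of the 7 genes passed between them with limma, while 5 of 19313 genes did. Before adjustment 2 genes were under 0.05, Ms4a6c (log2 difference 1.58) and Ms4a6b (1.82), both with higher values in SPM, and edgeR and DESeq2 each called 0 of the 7. For Ms4a8a the difference of SPM from LPM was -0.11 ± 0.71 and for Ms4a7 -0.19 ± 0.70 on the log2 scale, and in both genes the ranges of the 2 populations overlapped.

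Among 10918 genes with a mean of at least 50, those most similar in pattern to each member over the 10 population libraries were ranked. Pearson's r was taken on log2 values after each gene's mean within each table was taken off. It is given as description since the libraries share population and table. Nearest to Ms4a8a were Cxcl13, a chemokine that attracts B cells, Gata6, and Aldh1a2, an enzyme that makes retinoic acid, each with r = 0.99. Gata6, as listed above for LPM and SPM, had 103 and 132 in TGEM, 0 and 0.466 in BMDM, and 5.02 and 0 in microglia. Nearest to Ms4a7 were Glipr1, Vipas39 and Milr1 (r = 0.99 each). Cdca4 (0.98) was nearest to Ms4a6c, Hfe, a regulator of iron uptake, to Ms4a6b (0.94), Dync1i2, a dynein chain, to Ms4a6d (0.99) and Aurka, a mitotic kinase, to Ms4a4c (0.95). Ms4a4b, with a mean of 20.2, was under the minimum. Within the cluster Ms4a7 and Ms4a6d were most alike (r = 0.95), Ms4a4c and Ms4a6c came next (0.80), and Ms4a8a and Ms4a6b were most opposed (-0.83).

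The comparison of LPM with microglia was extended to NOD/ShiLtJ and SPRET/EiJ mice, with the C57BL6/J libraries of the second table. Ms4a8a kept its place in all 3 strains: LPM had 1535, 1915 and 2879 and microglia 0, 17.5 and 15.2 in C57BL6/J, NOD/ShiLtJ and SPRET/EiJ. Every LPM value was far above its microglia counterpart, at least 328-fold (against 3 reads) in C57BL6/J, 109-fold in NOD/ShiLtJ and 190-fold in SPRET/EiJ. In the limma fit with strain as a term, 3 of 7 genes passed, against 16.04% of all genes. Of these, 2 were lower in microglia (8.95% of all genes were) and 1 was higher (7.09%). Ms4a8a differed by -8.25 ± 0.71 (log2, microglia minus LPM, limma adjusted p = 0.00076) and passed with each library left out, though not when genes of low value were kept (0.0976).

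Ms4a6b was the gene higher in microglia, at 440, 549 and 471 against 33.8, 41.8 and 80.0 in LPM, in the same strain order. The groups did not overlap, and the ratio was 13.04, 13.1 and 5.89. The log2 difference was 3.30 ± 0.32 (limma, adjusted p = 0.0012). It lost its call without any 1 of the C57BL6/J and NOD/ShiLtJ libraries (adjusted p up to 0.0753). Ms4a4b was lower in microglia, at 1.561, 0.673 and 3.30 against 50.1, 25.4 and 37.4, by -3.82 ± 0.56 (limma, adjusted p = 0.0061), and without 5 of the 6 libraries it did not pass (up to 0.125). The microglia values are 1, 1 and 5 reads.

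**Figure D2:**
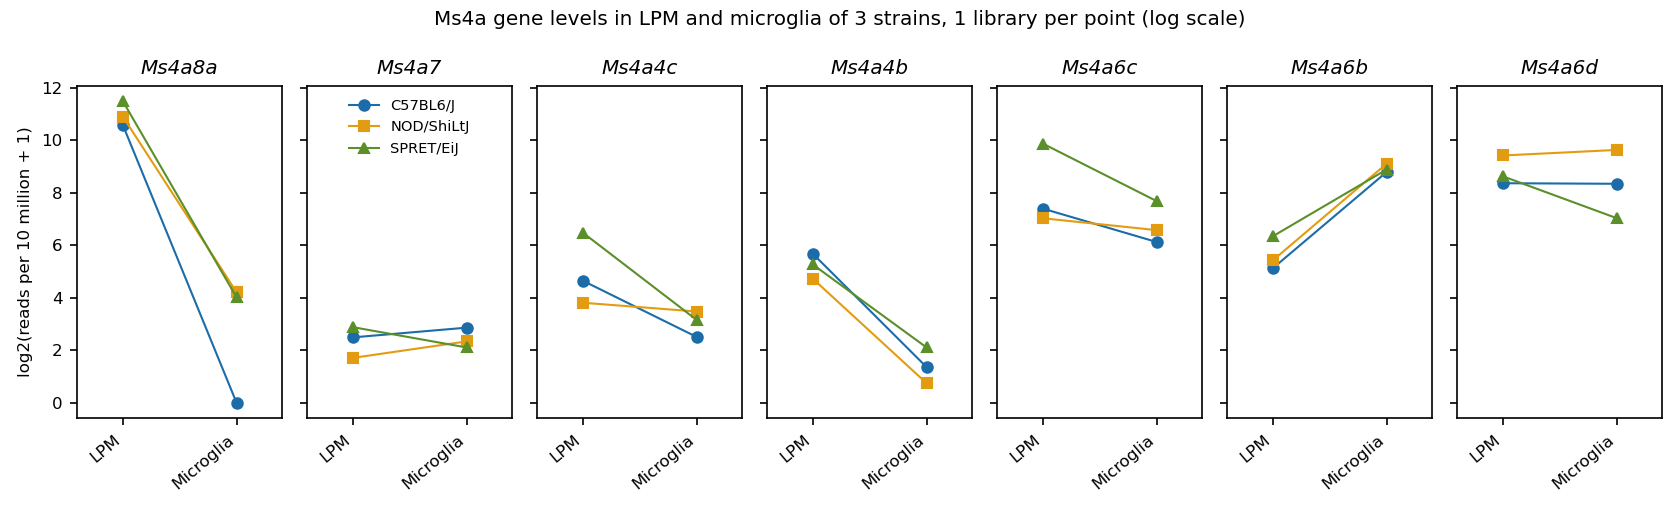
Values of the 7 genes as log2(reads per 10000000 mapped reads + 1) in LPM and microglia of C57BL6/J, NOD/ShiLtJ and SPRET/EiJ mice, 1 library per point. The LPM and microglia points of Ms4a8a and Ms4a6b lie apart in every strain, in opposite directions.

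Between the strains NOD/ShiLtJ and SPRET/EiJ, 0 of 7 genes passed with limma (0.310% of all genes did), in a fit with 1 residual degree of freedom, and before adjustment 2 were under 0.05 (Ms4a6c and Ms4a6d). DESeq2 called 1. Ms4a6c stood at 129 and 936 in NOD/ShiLtJ and SPRET/EiJ LPM and at 94.3 and 204 in their microglia, with C57BL6/J at 167 and 68.7. It was higher in SPRET/EiJ in both cell types, by 1.98 ± 0.47 on the log2 scale (limma, adjusted p = 0.21). The summed monocyte markers of these LPM were 5468 in NOD/ShiLtJ and 11834 in SPRET/EiJ. Cd177, 1 of these markers, went the other way and made up 3748 of the NOD/ShiLtJ sum and 6.35 of the SPRET/EiJ sum. Those of the microglia summed to 215.5 and 1473, and the part of these markers in the Ms4a6c values was not tested. Ms4a6d went the other way, with 683 and 394 in LPM and 791 and 130 in microglia (SPRET/EiJ minus NOD/ShiLtJ -1.69 ± 0.47, limma adjusted p = 0.26). The SPRET/EiJ genome differs from the reference at many sites, and whether reads were mapped to strain genomes is not given in the sources used here.

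In LPM kept in culture, Ms4a8a fell to near the detection limit with TGFB1, and Ms4a6b and Ms4a6c fell with ATRA and with TGFB1. Ms4a7 and Ms4a6d were called lower with ATRA, the Ms4a6d call being lost whichever library was left out. Both also had lower values with TGFB1 than with vehicle, which did not pass. With ligand as a term in the limma fit, 4 of 7 genes passed for ATRA against DMSO (2.30% of all genes), all lower (0.350% of all genes were), and 3 of 7 for TGFB1 against vehicle (6.70%), all lower (3.53%). The median log2 difference over genes with a mean of at least 50 was 0.11 with ATRA and -0.17 for IL-34 minus M-CSF.

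Ms4a8a was at 272 with vehicle and 4.83 with TGFB1 under IL-34, and at 239 and 2.11 under M-CSF. Both TGFB1 values were under all 6 other cultures, whose range was 239 to 664. The TGFB1 values are 5 and 3 reads, so vehicle exceeded TGFB1 56.4-fold under IL-34 (95% counting interval 23.9 to 175, exact Clopper-Pearson) and 113-fold under M-CSF (38.4 to 553). The log2 difference was -5.91 ± 0.36 (limma, adjusted p = 5.2e-58). Its adjusted p was 0.0523 without the M-CSF DMSO library and 0.0840 with low genes kept, with the sign unchanged. ATRA against DMSO gave 664 and 300 under IL-34 but 283 and 323 under M-CSF, and over both ligands the gene did not pass (log2 difference 0.48).

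In this fit limma found no variation of the spread between genes beyond its trend with level, so every gene's spread was read off the trend. The very small p-values rest on that, and the highest adjusted p with a library left out is given beside each call.

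Ms4a6b was at 149 with DMSO, 17.8 with ATRA, 156 with vehicle and 19.3 with TGFB1 under IL-34, and at 403, 46.5, 371 and 42.9 in the same order under M-CSF. The ATRA and TGFB1 cultures were below the DMSO and vehicle cultures with no overlap under either ligand. The fall was 8.36- and 8.67-fold with ATRA and 8.08- and 8.65-fold with TGFB1. On the log2 scale it was -3.04 ± 0.37 with ATRA (limma, adjusted p = 3.8e-13) and -3.02 ± 0.37 with TGFB1 (limma, adjusted p = 1.1e-13). The ATRA call was lost without either DMSO library (adjusted p up to 0.213) and the TGFB1 call without the M-CSF DMSO library (0.0523). Ms4a6b was also the 1 gene of 7 that differed between the ligands (0.999% of all genes, 0.817% lower with IL-34), by -1.28 ± 0.26 for IL-34 minus M-CSF (limma, adjusted p = 0.00039), and it did not pass when any 1 of 5 of the 8 libraries was left out (adjusted p up to 1).

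Ms4a7 was at 799 and 648 with DMSO and 173 and 198 with ATRA, for IL-34 and M-CSF. ATRA cultures were lowest of all 8, and TGFB1 cultures, at 410 and 465, lay between them and the vehicle cultures at 727 and 840. ATRA changed Ms4a7 by -1.95 ± 0.32 on the log2 scale (limma, adjusted p = 3.1e-07), a call lost without either DMSO library or the IL-34 ATRA library (up to 0.247), and TGFB1 by -0.84 (limma, adjusted p = 0.10), which did not pass. Whether the response of Ms4a7 to ATRA differs from that to TGFB1 was not tested.

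Ms4a6c was at 680 and 1114 with DMSO, 329 and 338 with ATRA, 723 and 1050 with vehicle and 319 and 371 with TGFB1, for IL-34 and M-CSF. All 4 treated cultures were below all 4 controls. The log2 differences were -1.38 ± 0.32 with ATRA (limma, adjusted p = 0.0017) and -1.34 ± 0.32 with TGFB1 (limma, adjusted p = 0.00091), lost without 6 and 4 of the 8 libraries (up to 0.404 and 0.224). Ms4a6d was at 952 and 1323 with DMSO and 574 and 454 with ATRA, a difference of -1.13 ± 0.32 (limma, adjusted p = 0.025) that did not pass when any library was left out (0.0807 to 0.773). With vehicle it was at 883 and 1319 and with TGFB1 at 574 and 609, and did not pass (limma, adjusted p = 0.092). Ms4a4c stayed between 0.966 and 9.41 and Ms4a4b between 2.61 and 16.9 over the 8 cultures, and neither was called for any agent.

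**Figure D3:**
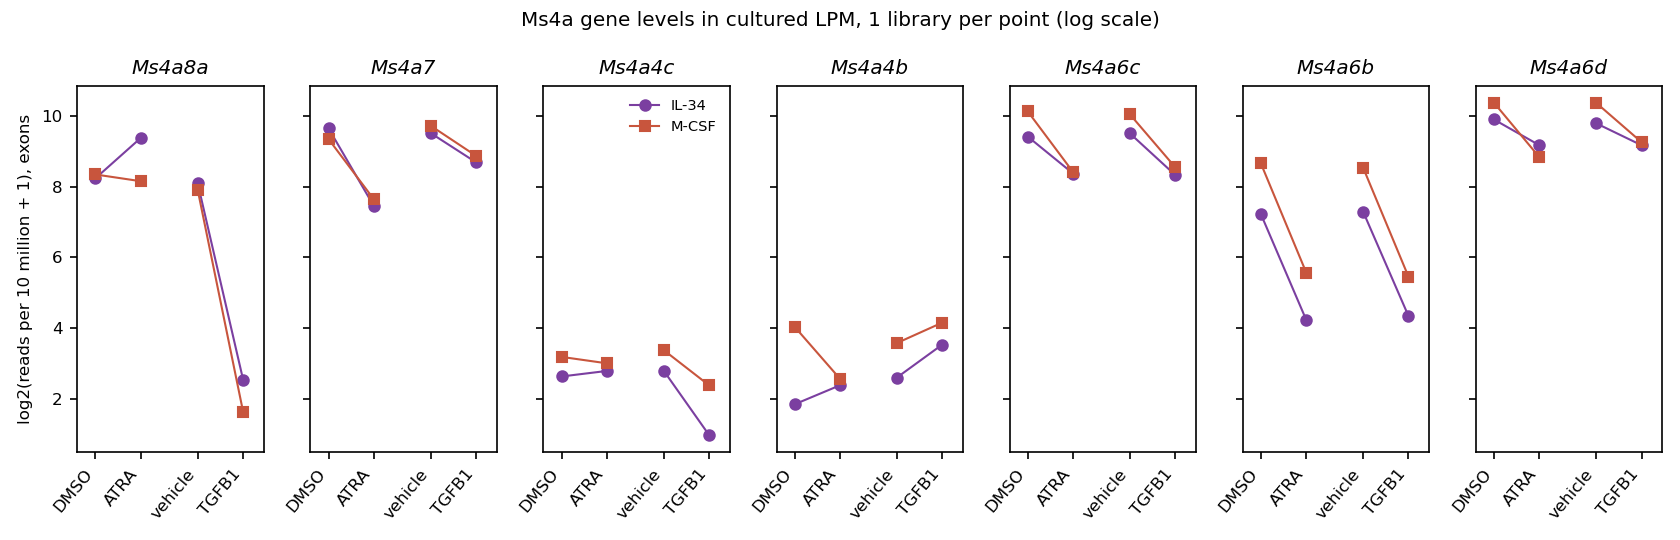
Values of the 7 genes as log2(exon reads per 10000000 mapped reads + 1) in 8 cultures of LPM, 1 library per point, by ligand and agent. Ms4a8a is lowest with TGFB1, Ms4a7 lowest with ATRA, and Ms4a6b is lower with either agent than with its control under both ligands.

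In microglia placed in culture, Ms4a7 and Ms4a6d had higher values than in freshly sorted microglia. The median gene with a mean of at least 50 was itself higher in culture, by 0.86 on the log2 scale. Ms4a7 was at 0 in fresh microglia and at 634 with IL-34, 1584 with M-CSF and 121 with GM-CSF, at least 189-, 472- and 36.1-fold higher against a limit of 3 reads in the fresh library. Ms4a6d was at 210 fresh and at 1981, 3588 and 1768, 9.43-, 17.1- and 8.41-fold the fresh value. In all 3 cultures both genes were above the fresh library. The GM-CSF library is named so in its title, while another label of it gives M-CSF.

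The other members differed by ligand. Ms4a4c was at 4.47 fresh, 6.73 with IL-34, 887 with M-CSF and 98.9 with GM-CSF, so that only the M-CSF and GM-CSF cultures were far above the fresh library. Ms4a6c was at 55.9, 196, 1508 and 322 in the same order, above the fresh value in each culture and highest with M-CSF. Ms4a4b was at 1.118, 4.49, 2.37 and 54.6, highest with GM-CSF, and Ms4a8a at 0, 19.1, 45.1 and 5.12. Ms4a6b had lower values in every culture, at 259 fresh and 231, 193 and 194 in culture. Each ligand has 1 library, so these differences between ligands have no replicate check.

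With the 3 cultures as a group against the 1 fresh library, 0 of 7 genes passed with limma (9.01% of all genes did), and 2 were under 0.05 before adjustment. These were Ms4a6d (3.461 ± 0.55 on the log2 scale, limma adjusted p = 0.071) and Ms4a7 (8.96 ± 1.81, limma adjusted p = 0.10). DESeq2 called 2 and quantile normalization 1. The fresh group has 1 library, which is assumed to vary like the cultures, and the median of all genes of sufficient level was itself shifted by 0.86 towards the cultures. P2ry12, which defines homeostatic microglia, was at 12847 in the fresh library and at 88.5 to 170 in the cultures. Markers of other cells also moved with some cultures. Summed mesothelial and fibroblast markers (6 genes) were 2.24 fresh, 172 with IL-34, 242 with M-CSF and 13.6 with GM-CSF, and summed mast cell markers (7 genes) were 1.118, 4.49, 138 and 0. Summed SPM and dendritic cell markers (10 genes) were 255, 1101, 3972 and 3394 in the same order. Their part in the Ms4a values was not tested.

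Compared with LPM cultured with vehicles of the agents, cultured microglia had lower Ms4a8a and higher Ms4a6d: 2 of 7 genes passed (14.3% of all genes), 1 lower (5.01%) and 1 higher (9.30%). The fit held the 2 microglia cultures with IL-34 or M-CSF and the 4 control LPM cultures. Ms4a8a was at 19.1 to 45.1 in these microglia and at 239 to 323 in these LPM, without overlap. The difference of -3.22 ± 0.33 on the log2 scale (limma, adjusted p = 0.0011) held with each library left out. Ms4a6d was at 1981 to 3588 against 883 to 1323, also without overlap. Its difference of 1.28 ± 0.21 (limma, adjusted p = 0.0069) fell short of the call under quantile normalization, at 0.75. The median over genes was shifted by 0.25 towards the microglia. The GM-CSF microglia have no LPM counterpart with the same ligand and were left out of this fit. Their Ms4a8a was at 5.12 and their Ms4a6d at 1768.

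**Figure D4:**
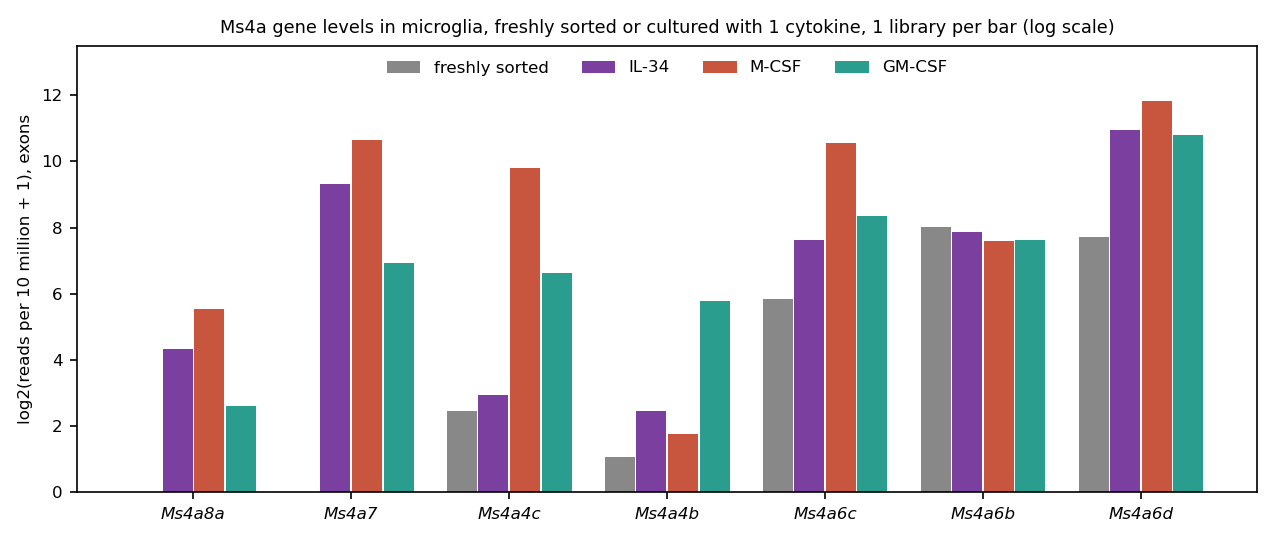
Values of the 7 genes as log2(exon reads per 10000000 mapped reads + 1) in freshly sorted microglia and in microglia cultured with IL-34, M-CSF or GM-CSF, 1 library per bar, with no bar at 0. Ms4a7 and Ms4a6d are above the fresh value in all 3 cultures, Ms4a4c chiefly with M-CSF, and Ms4a6b is close to its fresh value.

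PU.1 and mark entries were counted in a window of 557 kb (chr19:11057471-11614804), the cluster with 10 kb on either side. The window also holds genes outside the set, such as 4930526L06Rik, and entries were counted whichever gene they lie at. In the stretch between Ms4a8a and Ms4a7, SPM had an H3K27ac entry of 10119 bases (chr19:11260104-11270222, top 3.27%). The scores are the authors' own, from 1 library per list, and each entry is described by the percentage of its list that scores as high or higher, so that 1 is near the top. PU.1 entries numbered 65 in BMDM, 66 in SPM, 59 in TGEM, 51 in LPM and 17 in microglia, and H3K27ac entries 59, 22, 42, 16 and 7. By covered length H3K27ac took up 101437 bases in BMDM, 92931 in TGEM, 68847 in SPM, 22104 in LPM and 6801 in microglia. H3K4me2 entries numbered 51 in BMDM, 15 in SPM, 55 in TGEM, 24 in LPM and 17 in microglia. Microglia had the fewest entries for PU.1 and H3K27ac, and SPM for H3K4me2. The lists differ in size, from 44869 PU.1 entries in microglia to 89648 in SPM and from 15091 H3K27ac entries in microglia to 35713 in BMDM. As a share of the list, the window held 0.0379% of PU.1 entries in microglia and 0.0736% to 0.0960% in the others. For H3K27ac the share was 0.0464% in microglia and 0.0655% to 0.165% in the others, and for H3K4me2 it was 0.0413% and 0.04995% to 0.0906%. For BMDM and TGEM the H3K27ac antibody came from another maker than for the sorted cells and their H3K4me2 was measured on MNase-treated chromatin, so population and method cannot be told apart there. The antibody label of the BMDM PU.1 sample names H3K4me2, and its list was taken as PU.1 from the title.

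At the gene starts (within 1 kb), the best-ranked H3K27ac entries were at different genes in different populations. They were not always at the gene with the most RNA. In SPM, Ms4a4c (16.7%) and Ms4a6c (19.1%) ranked ahead of Ms4a8a (20.6%). The mean RNA values in SPM were 96.4, 687 and 1842 in the same order. At the Ms4a7 start, BMDM had an entry of 9454 bases (chr19:11328740-11338193) in the top 0.840% of its list, TGEM one in the top 9.40% and SPM one at 72.3%, and none was listed for LPM or microglia. H3K4me2 at this start was in the top 0.354% in BMDM and 1.18% in TGEM, and at 61.9% in LPM and 91.8% in microglia. PU.1 was listed there in BMDM (18.9%), SPM (29.1%), LPM (36.9%) and TGEM (40.7%) and not in microglia. The entry of LPM from SPRET/EiJ mice ranked higher than all of these, at 2.99%, where Ms4a7 RNA was 6.35. These best-ranked PU.1 entries, merged to chr19:11336108-11336314, lie inside the promoter printed above. They do not reach the GAGGAA marked in it.

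At the Ms4a8a start, H3K27ac was listed in LPM (chr19:11079406-11082060, top 11.3%), SPM (20.6%) and TGEM (72.0%), and in LPM of NOD/ShiLtJ (10.4%) and SPRET/EiJ (3.82%), and in neither BMDM nor microglia. H3K4me2 was in the top 2.94% in LPM and was listed at 80.0% in BMDM. Of the 5 populations PU.1 was listed there in LPM, at 55.1%. A further H3K27ac region lay 38.9 kb upstream of Ms4a8a (LPM chr19:11117943-11122038, top 7.12%) and was listed in LPM of NOD/ShiLtJ (6.97%) and SPRET/EiJ (10.8%), in SPM (17.2%), in TGEM (12.4%) and also in BMDM (10.95%), where Ms4a8a RNA was near 0.

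At the Ms4a6b start, H3K27ac was in the top 2.07% in BMDM, 10.7% in TGEM, 27.04% in microglia and 68.5% in SPM, with none in LPM. H3K4me2 there was in the top 5.10% in BMDM, 9.83% in microglia and 14.9% in TGEM. PU.1 was listed at the Ms4a6b start in all 5 populations, and at the Ms4a6c start (chr19:11469310-11469518) in all 9 lists of populations and strains. At the Ms4a4c start PU.1 was listed in all 5 populations, from 20.2% in SPM to 80.5% in microglia. Merged to chr19:11407546-11407738, these entries cover the GAGGAA marked in the Ms4a4c promoter printed above. At the start of Ms4a4b, whose promoter is the nearest in sequence, no list of PU.1 or either mark held an entry.

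At the start of Ms4a4a, which has no RNA value here, the marks were listed in BMDM and TGEM. H3K27ac was in the top 2.21% in BMDM (chr19:11371539-11377867) and at 58.9% in TGEM, and H3K4me2 was at 8.44% and 49.3%. The best PU.1 entry within 1 kb was at 15.7% in TGEM, 21.4% in LPM, 26.7% in SPM and 36.6% in BMDM. In LPM of NOD/ShiLtJ mice it was at 96.0%. The TGEM, LPM and SPM entries belong to a merged stretch at the 1 kb limit (chr19:11376434-11376720). BMDM and NOD/ShiLtJ LPM also had an entry in this stretch, counted as beyond 1 kb, at 12.2% and 60.2%. The order of populations by PU.1 rank here therefore depends on the distance limit. No entry was listed at this start in microglia of any of the 3 strains or in LPM of SPRET/EiJ mice.

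**Figure D5:**
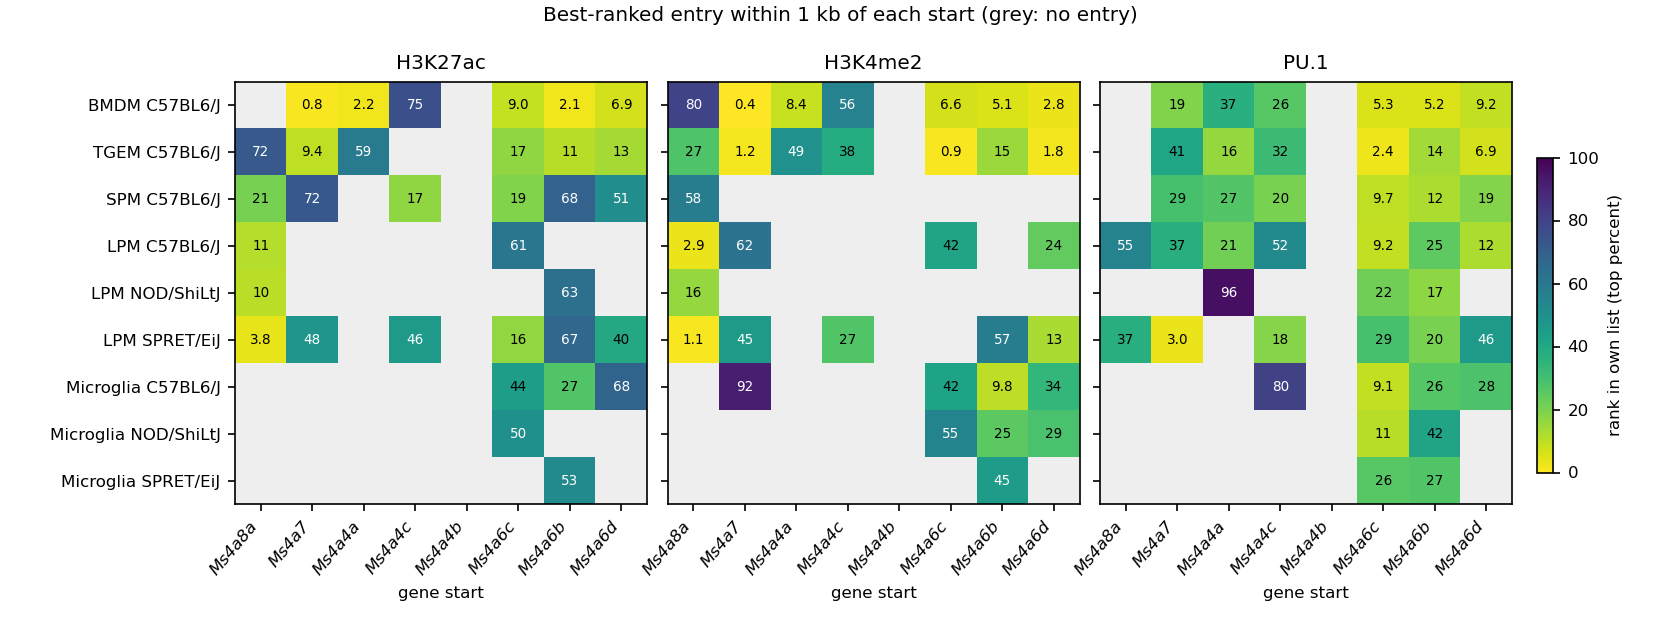
Rank of the best H3K27ac, H3K4me2 and PU.1 entry within 1 kb of each of the 8 gene starts, as the percentage of the list that scores as high or higher, by population and strain, with grey cells where none is listed. For H3K27ac and H3K4me2, Ms4a7 ranks highest in BMDM and TGEM and Ms4a8a in LPM, and the Ms4a4b column is grey.

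Merged over the 5 populations, PU.1 entries formed 92 loci, of which 11 were in all 5, 22 in all but microglia and 25 in 1 population only. The same shares over all PU.1 loci of the genome were not worked out, and the microglia list is the shortest of the 5. Whether these counts are particular to the cluster was therefore not tested. A locus 7.18 kb upstream of Ms4a7 (chr19:11343211-11343440) was in the top 2.84% in BMDM, 4.53% in TGEM, 5.55% in SPM, 14.3% in LPM and 51.0% in microglia. Another beyond the 3′ end of Ms4a8a (chr19:11060942-11061158) was in the top 1.93% in BMDM, 2.23% in TGEM, 5.26% in SPM, 10.0% in LPM and 35.8% in microglia. SPM had the longest H3K27ac entry of the window, 22380 bases over the end of Ms4a6c and beyond (chr19:11479165-11501544), in the top 0.334%.

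The header lines of the lists for cultured LPM call them filtered to intergenic entries. They still held entries inside genes, such as PU.1 at chr19:11411638-11411850 in Ms4a4c with DMSO (17.6%) and ATRA (17.02%). At most 0.438% of any such list lay within 1 kb of a gene start of the expression tables, so those starts cannot be read. Ms4a4a is not in those tables, and PU.1 was listed at its start with ATRA (62.4%) and DMSO (55.6%). The TGFB1 vehicle list had an H3K27ac entry there (chr19:11375579-11375737, 9.64%). With M-CSF, the region 39.04 kb upstream of Ms4a8a had an H3K27ac entry of 3059 bases in the top 19.1% with ATRA (chr19:11118617-11121675) and one of 754 bases at 96.0% with DMSO. The DMSO list had an entry 4.71 kb upstream of Ms4a6b (chr19:11512894-11514804, top 22.9%) and the ATRA list had none there. Ms4a6b RNA in the same cultures was 403 with DMSO and 46.5 with ATRA, and Ms4a8a RNA was 323 and 283. The PU.1 lists of the TGFB1 culture and its vehicle hold identical entries and were counted once, and the H3K27ac entries of these cultures have another width, so no comparison with TGFB1 was made.

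Of 14 other Ms4a and Tmem176 genes, 11 have an entry and 9 could be tested in the populations, where 4 differed (limma F test, beside 42.4% of all genes). Ms4a1 was at 1701 and 1059 in SPM, 130 and 176 in LPM, 24.1 and 62.1 in TGEM, 10.8 and 6.24 in microglia and 5.02 and 14.4 in BMDM. SPM lay above all other libraries, as their summed B-cell markers did, of which Ms4a1 is one. SPM exceeded microglia by 7.19 ± 0.63 on the log2 scale (limma, adjusted p = 5.4e-05). 4930526L06Rik overlaps Ms4a1 on the other strand and followed it, and reads from both genes cannot be told apart. In the cultures 4 of these genes were tested, and Tmem176a (-2.16 ± 0.30, limma adjusted p = 0.0035) and Tmem176b (-2.65 ± 0.26, limma adjusted p = 0.0010), both membrane proteins of myeloid cells related to the MS4A family, were lower in cultured microglia than in control LPM cultures, while none of the 4 was called for ATRA, TGFB1 or ligand.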

How the data were processed

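RNA-seq and ChIP-seq of mouse macrophages were analysed from the deposited tables. Per the file headers, the authors gave RNA values as reads per transcript scaled to 10000000 mapped reads, a normalized signal from which whole reads were recovered (100% of values within 0.1 of a whole number). PU.1 and mark lists carry the authors' score per entry, per the file headers. Bowtie, STAR, HOMER and mm10 are named in the submitters' processing notes without versions. The longest transcript of each of 24063 symbols was used. Genes reaching 1 in at least 1 library were fitted on log2(value + 1) with limma 3.58.1 in R 4.3.3, with table, strain or ligand as a term. A call needed a Benjamini-Hochberg adjusted p under 0.05 over all genes tested and a log2 difference of 1. Fold changes on this scale understate the change of low genes. Alternatives were a pseudocount of 5, no filter, TMM scaling, quantile normalization, edgeR 4.0.16 and DESeq2 1.42.0 on recovered reads, and leaving out each library. The fits were tested on simulated data. The members and gene lists were chosen with earlier results of these data known. Genes named for likeness were among the 3 nearest by Pearson's r, over genes with a mean of at least 50. For this r, each gene's mean within each table was first taken off its log2 values.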

Additional observations from a re-analysis of the deposited data

Results flagged for a closer look

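In 4 cases a gene moved in opposite directions in the 2 groups of a contrast, with 1 library on each side, so the difference between the groups was not tested. On the log2(value + 1) scale, Ms4a8a was higher with ATRA than with DMSO in LPM cultured with IL-34 (1.14) and lower in LPM cultured with M-CSF (-0.19). Ms4a4c was higher in SPRET/EiJ than in NOD/ShiLtJ LPM (2.67) and lower in SPRET/EiJ than in NOD/ShiLtJ microglia (-0.32). Ms4a6b did likewise, at 0.92 in LPM and -0.22 in microglia. Ms4a6d was higher in microglia than in LPM of NOD/ShiLtJ mice (0.21) and lower in microglia of SPRET/EiJ mice (-1.59).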

How the results depend on the processing

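Without a filter on low values, 21 population tests passed in place of 37, 0 genes in place of 3 between microglia and LPM of the strains, 1 with ATRA, 1 with TGFB1 and 0 between ligands, with more genes tested. DESeq2 called 5 genes between strain microglia and LPM, 1 between SPRET/EiJ and NOD/ShiLtJ and 2 between cultured and fresh microglia. Quantile normalization called 1 in the last comparison and 1 between cultured microglia and LPM. Leaving out each library gave 24 to 43 population tests, 5 to 7 genes for any difference, 1 to 3 between strain microglia and LPM, 0 to 3 with ATRA, 0 to 3 with TGFB1, 0 to 1 between ligands and 2 to 3 between cultured microglia and LPM. Over the 5 C57BL6/J populations, 282 of 566 chromatin entries in the window were above the median score of their own list. Apart from the number of genes tested, the cause of these changes was not tested.

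Some differences that did not pass changed sign. The log2 difference of Ms4a7 between IL-34 and M-CSF, -0.071, became 0.041 with TMM scaling, 0.086 with quantile normalization and 0.096 and 0.097 with edgeR and DESeq2. That of Ms4a7 between cultured microglia and LPM, 0.42, became -0.0019 with quantile normalization and ranged from -0.27 to 1.10 with libraries left out. In the same comparison Ms4a4b ranged from -2.06 to 0.23, Ms4a6b from -0.999 to 0.60 and Ms4a6c from -1.83 to 0.48. Between strain microglia and LPM, Ms4a6d ranged from -0.81 to 0.095 and Ms4a7 from -0.20 to 0.50, and with ATRA Ms4a4b ranged from -1.26 to 0.33 and Ms4a4c from -0.33 to 0.30.

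Without the table term (no replicate block), 30 population tests passed and 6 genes differed among populations, and without the strain term 3 genes passed between microglia and LPM. Deviations of libraries from the same table correlated between -0.24 and 0.90, over 0.1 in 6 of 10 pairs and 0.77 to 0.90 among LPM, SPM and microglia. The table stayed a term because each population has 1 library in each of the 2 tables. DESeq2 was not run for any difference among the populations, and no library could be left out of the comparison of SPRET/EiJ with NOD/ShiLtJ.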
